A study of Mus musculus with 25 samples.

Results

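Expression of 10 transcription factors of the lung mesenchyme, Tcf21, Tbx2, Tbx3, Tbx4, Tbx5, Foxf1, Meox2, Runx1, Runx2 and Twist1, was followed in lung cells before and after bleomycin. The factors were taken by name, but earlier results of these data were known when they were chosen. They are 10 of the 47729 genes listed in the bulk count table, and all 10 were among the 15773 genes that passed the filter on low counts. The cells were Lin- cells, obtained by a sort that removed dead cells (DAPI) and those bearing CD45, CD31 or CD326, the surface proteins of hematopoietic, endothelial and epithelial cells. The labels call them primary lung fibroblasts. Every mouse carried Col1a1-CreERT2, a Cre recombinase that is driven by the Col1a1 promoter and activated by tamoxifen, together with floxed alleles of Fas (Fas fl/fl). Naive mice (Control in the labels) had no bleomycin. Mice given bleomycin into the trachea received either tamoxifen (Fas-/-, FasDel in the labels) or corn oil (Fas+/+, WT in the labels) while fibrosis developed, and were harvested at 3 or 6 weeks. Fas+/+ mice thus kept floxed alleles, Cre acted in cells that used the Col1a1 promoter, and the deletion and tamoxifen cannot be told apart. There were 20 bulk RNA-seq libraries, 4 for each of the 5 groups. A further 5 libraries, 1 per condition and each from pooled mice, were made by scRNA-seq (sequencing of single cells). The study's methods describe replicates as individual animals, while the labels name no animal for a library.

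As background, Tcf21 is a basic helix-loop-helix factor that the developing lung mesenchyme needs and that marks the lipofibroblast lineage. The T-box factors Tbx2, Tbx3, Tbx4 and Tbx5 act in the mesenchyme of the lung bud, where Tbx4 and Tbx5 lie upstream of Fgf10, while Foxf1 answers Hedgehog signals from the epithelium and is also used by capillary endothelium. Meox2 is a homeobox factor of mesoderm, Runx1 and Runx2 are best known from blood formation and bone, and Twist1 from mesenchymal differentiation. They were grouped here as factors linked to mesenchymal identity, which does not mean that they are used only in mesenchyme.

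Total counts ran from 11819700 to 25189096 per bulk library. Genes of cell types that the sort should remove were nonetheless present. The 8 blood endothelial markers (Pecam1, Cdh5, Cldn5, Kdr, Tie1, Egfl7, Emcn and Ptprb) summed to 155–445 CPM (counts scaled to library size) in naive libraries, 2555–9956 in Fas+/+ and 632–8905 in Fas-/- libraries at 3 weeks, and 463–1799 and 93.5–2838 at 6 weeks. None of the 8 was at 0 in the naive libraries. In 3 groups 1 library stood apart, namely Fas+/+ replicate 1 at 3 weeks, with 9956 against at most 3347 in the other libraries of its group, Fas-/- replicate 4 at 3 weeks (8905 against at most 1140) and Fas-/- replicate 2 at 6 weeks (2838 against at most 448). Fas+/+ replicate 1 at 3 weeks was also the lowest of its group in the 9 profibrotic fibroblast markers, with 11913 CPM against a median of 50883. The 5 erythroid markers summed to 2979–9589 CPM in naive and at most 235 CPM in bleomycin libraries. The 8 epithelial markers summed to 49.7–127 CPM in naive libraries, to 194–641 (Fas+/+) and 255–422 (Fas-/-) at 3 weeks, and to 521–1418 and 135–402 at 6 weeks. Hematopoietic (7 genes), lymphatic endothelial (6) and platelet markers (5) were higher at 3 weeks too, at 50.3–71.0, 265–403 and 11.3–24 CPM in Fas+/+ libraries against 2.68–4.73, 8.98–22 and 2.39–4.03 in naive ones. Their part in the results that follow was not tested. Fas itself was counted over the whole gene, so its mean of 44.2 ± 14.2 CPM (SD, n = 4) in Fas-/- against 41.0 ± 11.3 in Fas+/+ libraries at 3 weeks checks nothing about the deletion.

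At 3 weeks after bleomycin, Lin- cells of Fas+/+ mice held less RNA of Tcf21, Tbx2, Tbx4, Tbx5 and Meox2, and more of Tbx3, Foxf1, Runx1 and Runx2, than those of naive mice. By the quasi-likelihood test of edgeR at an adjusted p of 0.05, 9 of the 10 factors were called, 4 higher and 5 lower, where 41.3% of all tested genes were called (22.1% higher and 19.2% lower). The libraries of 8 factors did not overlap between these groups, as for 32.2% of all genes. In Fas-/- mice at 3 weeks 5 factors were called, with Foxf1, Runx1 and Runx2 higher and Tbx2 and Tbx4 lower, where 32% of all genes were called (17.2% higher and 14.8% lower), and 7 did not overlap, as for 31.1% of all genes. Without naive replicate 1, naive replicate 3 or Fas-/- replicate 4 the called factors were 3, Tbx2, Runx1 and Runx2, while without Fas+/+ replicate 1, which enters the pooled spread, they were 7, with Tcf21 and Meox2 added. How many of all genes were called without each of these libraries is not given here, so a general shift in calls cannot be told apart. In such bulk samples fewer cells of a type and less RNA per cell cannot be told apart. At 6 weeks edgeR called none in Fas+/+ mice, where 5.31% of all genes were called, and DESeq2 called none, while 1 factor, Runx1, had an unadjusted p under 0.05, as had 19.5% of all genes, and 2 did not overlap, as for 16.6%. In Fas-/- mice at 6 weeks only Runx1 was called, higher, where 6.48% of all genes were (3.66% higher), and 2 factors did not overlap, as for 16.1% of all genes. The comparisons against naive mice share the same 4 naive libraries.

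**Figure D1:**
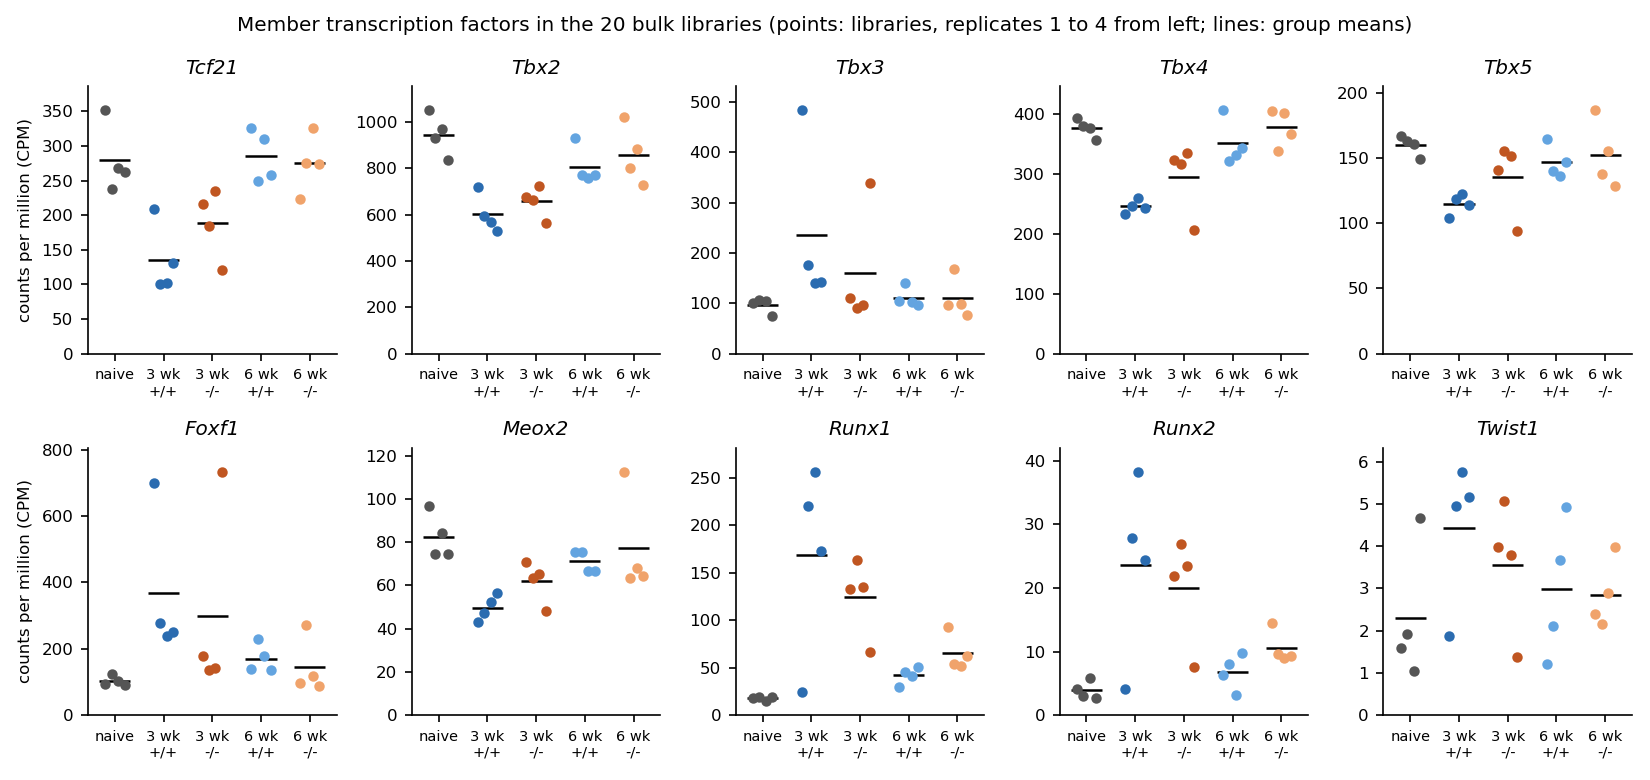
Each panel plots 1 factor, with the normalized level in CPM on the vertical axis and the 5 groups (naive, then Fas+/+ and Fas-/- at 3 and 6 weeks) on the horizontal axis; each point is 1 library and each line a group mean of 4 libraries. Tcf21, Tbx2, Tbx4, Tbx5 and Meox2 dip at 3 weeks, and single libraries lead Tbx3 and Foxf1. The group means of Runx1 and Runx2 peak at 3 weeks, where Fas+/+ replicate 1 and Fas-/- replicate 4 are the lowest libraries of their groups.

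Tcf21, whose gene lies at chr10:22817281-22820174 on the minus strand (GRCm38), stood at 351, 237, 268 and 262 CPM in the naive libraries (replicates 1 to 4). It stood at 209, 100, 102 and 130 CPM in Fas+/+ and at 216, 185, 234 and 120 CPM in Fas-/- libraries at 3 weeks. All 8 libraries of 3 weeks thus lay below every naive library, and the lowest of all were Fas+/+ replicates 2 and 3. The level was 2.07-fold lower than naive in Fas+/+ mice (log2 fold change -1.05 ± 0.23 SE, edgeR adjusted p = 0.00149). An exact two-sided permutation test of the group means gave p = 0.0286, which is the smallest that 4 libraries against 4 allow. Its log2 fold change in Fas-/- mice was -0.57 ± 0.22 and missed the threshold of edgeR (adjusted p = 0.0609), although the groups did not overlap. At 6 weeks Tcf21 was back among the naive values, with 325, 249, 311 and 258 CPM in Fas+/+ and 224, 275, 327 and 273 CPM in Fas-/- libraries. From 3 to 6 weeks Tcf21 rose 2.11-fold in Fas+/+ mice (log2 fold change 1.08 ± 0.23, edgeR adjusted p = 0.00265), without overlap of the groups. The same step in Fas-/- mice was 0.54 ± 0.22 on the log2 scale and was not called by edgeR (adjusted p = 0.137). The sum of the 9 lipofibroblast markers moved beside it, with 9639–11268 CPM in naive, 3298–5461 in Fas+/+ and 5402–7055 in Fas-/- libraries at 3 weeks. At that time edgeR called 8 of the 9 lower in Fas+/+ mice, and 6 lower and 1 higher in Fas-/- mice. At 6 weeks their sums were 7133–8908 and 7699–9382 CPM, with 1 and 2 of the 9 called lower. The part of lipofibroblast number in the course of Tcf21 was not tested in bulk.

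Tbx2, a T-box repressor at chr11:85832551-85841948 on the plus strand, had the highest level of the 10 per length of exon in naive cells, at 261 ± 24.7 CPM per kilobase (SD, n = 4). On the CPM scale it stood at 1051, 930, 969 and 835 in naive libraries, at 721, 594, 568 and 530 in Fas+/+ and at 677, 665, 724 and 563 in Fas-/- libraries at 3 weeks. No library of 3 weeks reached the lowest naive library. Tbx2 was 1.57-fold lower than naive in Fas+/+ mice (log2 fold change -0.65 ± 0.12, edgeR adjusted p = 0.000423) and 1.44-fold lower in Fas-/- mice (-0.53 ± 0.12, edgeR adjusted p = 0.00319). At 6 weeks it stood at 929, 772, 760 and 770 CPM in Fas+/+ and at 1023, 801, 884 and 730 CPM in Fas-/- libraries, overlapping the naive range in both genotypes. In the single-cell data pericyte-like cells had the highest mean level of Tbx2, at 1470 CPM of their own RNA counts. Lipofibroblast-like cells had 469 CPM but were more numerous, with 3019 against 744 cells. The 7 pericyte markers summed to 2211–3237 CPM in naive, 1500–1841 in Fas+/+ and 1047–1966 in Fas-/- bulk libraries at 3 weeks, with 6 of 7 called lower by edgeR in both. The part of either cell type in the course of Tbx2 was not tested. Tbx2 was the single factor called between 3 and 6 weeks in Fas-/- mice (log2 fold change 0.39 ± 0.12, edgeR adjusted p = 0.0493), where 9.02% of all genes were called (4.48% higher). Tbx2 and Tbx4 were the 2 that did not overlap in that step, as for 17.4% of all genes.

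Tbx4, which lies 44473 bases downstream of Tbx2 at chr11:85886422-85916097, is a T-box factor of lung mesenchyme and hindlimb. Its naive libraries were tight, at 393, 380, 377 and 356 CPM, and those of Fas+/+ mice at 3 weeks were tight as well, at 233, 246, 260 and 243 CPM. The distance between these groups was far larger than the spread within either. The fold was 1.53 lower (log2 fold change -0.62 ± 0.12, edgeR adjusted p = 0.000625). Tbx4 stood at 323, 316, 335 and 206 CPM in Fas-/- mice at 3 weeks, so that replicate 4, the library rich in endothelial RNA, lay far below the other 3. The log2 fold change against naive was -0.35 ± 0.12 (edgeR adjusted p = 0.0297), and without that library it was -0.23 and no longer called by edgeR (adjusted p = 0.0516). By 6 weeks Tbx4 stood at 406, 322, 332 and 344 CPM in Fas+/+ and at 405, 338, 402 and 366 CPM in Fas-/- libraries. The rise from 3 to 6 weeks was called in Fas+/+ mice (log2 fold change 0.51 ± 0.12, edgeR adjusted p = 0.00483), while the same step in Fas-/- mice was not called although the groups did not overlap (0.36 ± 0.12, edgeR adjusted p = 0.0663).

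Tbx5, a relative of Tbx4 that acts with it in the lung bud, lies at chr5:119832668-119885219, 147943 bases from Tbx3. It ranged over 150–167 CPM in naive, 104–122 in Fas+/+ and 94.4–155 in Fas-/- libraries at 3 weeks, where replicate 4 was again the lowest. It was 1.40-fold lower than naive in Fas+/+ mice (log2 fold change -0.48 ± 0.13, edgeR adjusted p = 0.00746), with no overlap. The groups overlapped in Fas-/- mice and the test of edgeR was not passed (-0.24 ± 0.13, adjusted p = 0.173). At 6 weeks the ranges were 136–165 CPM in Fas+/+ and 129–187 in Fas-/- libraries.

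Tbx3, a T-box repressor at chr5:119670669-119684724 on the plus strand, went the other way from its relatives. It stood at 101, 107, 105 and 74.6 CPM in naive, at 483, 176, 141 and 143 CPM in Fas+/+ and at 110, 91.3, 96.4 and 340 CPM in Fas-/- libraries at 3 weeks. The high values, 483 and 340, belong to the libraries richest in endothelial markers. In Fas+/+ mice Tbx3 was 2.44-fold higher than naive (log2 fold change 1.28 ± 0.43, edgeR adjusted p = 0.0234). Without Fas+/+ replicate 1 the log2 fold change was 0.66 and was not called by edgeR (adjusted p = 0.157). The call was also lost without naive replicate 4. It was kept when the library highest in endothelial markers was left out of each bleomycin group, a setting chosen after seeing the data. No call was made for Fas-/- mice with all libraries (0.72 ± 0.43, edgeR adjusted p = 0.209), and without Fas-/- replicate 4 the value was 0.025. The opposite-strand gene Tbx3os1 fell in Fas+/+ mice (log2 fold change -0.94 ± 0.28, edgeR adjusted p = 0.0115). Because the use of strand in counting is not given in the sources used here, how reads of the overlap were counted is not known.

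Foxf1, the forkhead factor downstream of Hedgehog signalling, lies at chr8:121084386-121088144 on the plus strand, 1275 bases from the long noncoding RNA gene Fendrr. It stood at 93.8, 123, 103 and 91.9 CPM in naive libraries, and at 701, 279, 239 and 249 CPM in Fas+/+ libraries at 3 weeks. The Fas-/- libraries of 3 weeks stood at 178, 135, 143 and 734 CPM. All 8 libraries of 3 weeks exceeded every naive library, but 701 and 734 were again in the libraries richest in endothelial RNA. Foxf1 was 3.57-fold higher than naive in Fas+/+ mice (log2 fold change 1.83 ± 0.52, edgeR adjusted p = 0.0089) and 2.89-fold higher in Fas-/- mice (1.53 ± 0.51, edgeR adjusted p = 0.0297). Without Fas+/+ replicate 1 the first became 1.31 and kept its call (edgeR adjusted p = 0.0388), and without Fas-/- replicate 4 the second became 0.55 and lost it (edgeR adjusted p = 0.281). The Fas-/- call was also lost without naive replicate 1, 3 or 4 and in a fit of only the groups compared (edgeR adjusted p = 0.0651), and DESeq2 gave no adjusted p for Foxf1 in any comparison. Leaving out the library highest in endothelial markers in each bleomycin group kept both edgeR calls of Foxf1. That setting was chosen after seeing the data. At 6 weeks Foxf1 stood at 137, 229, 178 and 134 CPM in Fas+/+ libraries, all above the naive ones, and at 97.3, 273, 119 and 89.0 CPM in Fas-/- libraries, where 273 was in the library richest in endothelial markers. Neither was called by edgeR at 6 weeks (log2 fold change 0.72 ± 0.50, adjusted p = 0.474, and 0.49 ± 0.50, adjusted p = 0.642). Fendrr moved with it, at 2.83-fold its naive level in Fas+/+ mice at 3 weeks (edgeR adjusted p = 0.0321). The Fas-/- libraries held 2.89-fold the naive level (edgeR adjusted p = 0.0368). Without Fas+/+ replicate 1 the log2 fold change of Fendrr in Fas+/+ mice was 0.98 (edgeR adjusted p = 0.137), and without Fas-/- replicate 4 that in Fas-/- mice was 0.34 (edgeR adjusted p = 0.480), so both calls were lost. Within groups, Pearson's r with the mean of the endothelial markers over the 20 libraries was 0.91 for Foxf1, 0.83 for Fendrr and 0.80 for Tbx3, and between -0.78 and -0.74 for Tbx4, Tbx5 and Meox2. With that mean as a covariate, the log2 fold change of Foxf1 in Fas+/+ mice at 3 weeks turned to -0.31 and that of Tbx3 to -0.37. Of the 10 factors Runx1, Runx2 and Twist1, all higher, were then the 3 called by edgeR. The share of all genes called in that fit is not given here. All 8 endothelial markers were higher at 3 weeks in Fas+/+ mice, so that the covariate and the groups move together, and the part of endothelial RNA in these results was not tested.

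**Figure D2:**
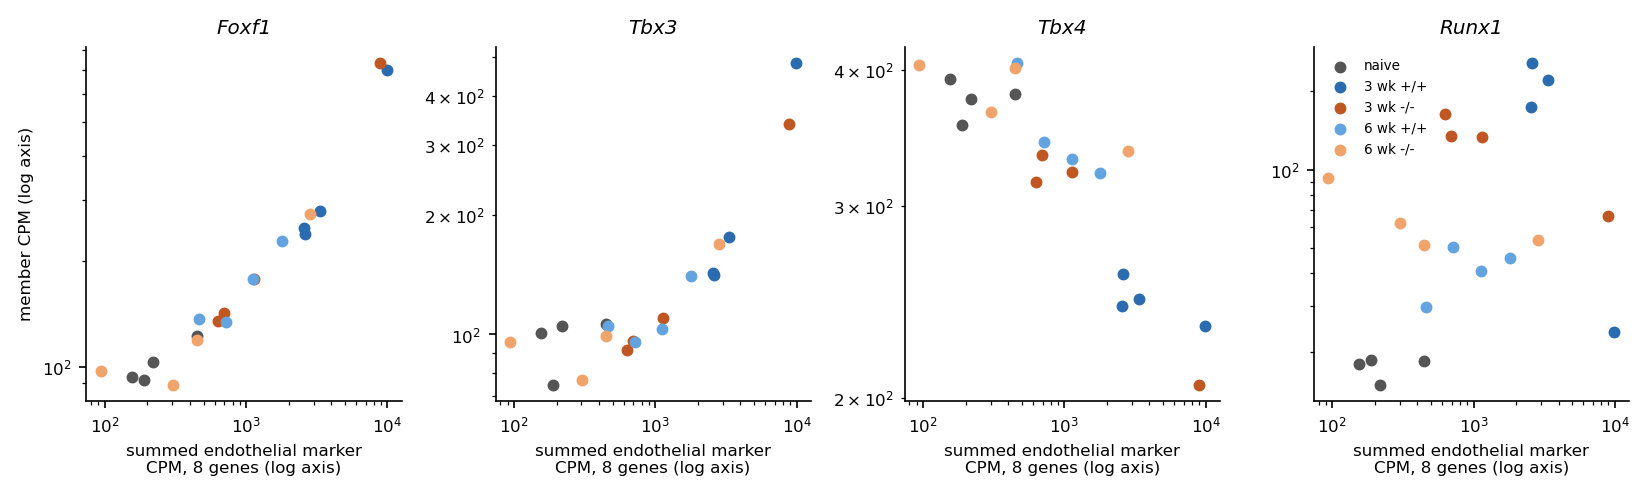
Foxf1, Tbx3, Tbx4 and Runx1 levels (CPM, log axis, 1 panel each) are plotted against the summed CPM of the 8 blood endothelial markers (log axis), with 1 point per bulk library coloured by group. Foxf1 and Tbx3 climb with the marker sum to their highest values in the libraries at 8905 and 9956, Tbx4 is lowest at that end, and the Runx1 level of 23.7 CPM at the far right is Fas+/+ replicate 1 at 3 weeks.

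Meox2, a homeobox factor at chr12:37108540-37179534 on the plus strand, stood at 96.7, 74.6, 84.2 and 74.4 CPM in naive libraries. At 3 weeks it stood at 43.0, 47.1, 52.3 and 56.3 CPM in Fas+/+ and at 70.8, 63.3, 65.1 and 48.3 CPM in Fas-/- libraries, all below the naive ones. It was 1.66-fold lower in Fas+/+ mice (log2 fold change -0.73 ± 0.16, edgeR adjusted p = 0.00186) and missed the threshold of edgeR in Fas-/- mice (-0.41 ± 0.16, adjusted p = 0.0582). At 6 weeks it ranged over 66.7–75.6 CPM in Fas+/+ and 63.4–112 CPM in Fas-/- libraries, and the rise from 3 weeks was called in Fas+/+ mice (0.52 ± 0.16, edgeR adjusted p = 0.029). Its relative Meox1 went the opposite way and was higher at 3 weeks in both genotypes (log2 fold changes 2.05 ± 0.21, edgeR adjusted p = 2.23e-06, and 1.77 ± 0.21, adjusted p = 2.03e-05).

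Runx1, a runt-domain factor at chr16:92601466-92826149 on the minus strand, had the largest fitted fold change of the 10 against naive mice at 3 weeks. It stood at 18, 18.5, 14.9 and 18.6 CPM in naive libraries. At 3 weeks it stood at 23.7, 220, 256 and 173 CPM in Fas+/+ and at 133, 164, 135 and 66.7 CPM in Fas-/- libraries. Every library of 3 weeks was above every naive library, but Fas+/+ replicate 1 only just. That library and Fas-/- replicate 4, the lowest of its group, were those of their groups with the most endothelial and the least profibrotic marker RNA. The 9 profibrotic markers summed to 13300–18280 CPM in naive, 11913–60304 in Fas+/+ and 21356–51988 in Fas-/- libraries at 3 weeks, and 8 and 7 of the 9 were called higher by edgeR. Against naive mice at 3 weeks, 6 and 7 of the 8 epithelial markers were called higher as well, and so were 6 of the 7 hematopoietic markers in both genotypes. In Fas+/+ mice at 3 weeks the epithelial sum was highest in replicate 1 (641 CPM), where Runx1 was lowest. In Fas+/+ mice at 6 weeks, when Runx1 was lower, the epithelial sum was 521–1418 CPM. At 3 weeks the hematopoietic markers summed to 65.9, 50.3, 54.6 and 71.0 CPM in Fas+/+ libraries (replicates 1 to 4). In Fas-/- libraries they summed to 119, 106, 137 and 29.2 CPM. The part of either marker set in the course of Runx1 was not tested. Runx1 was 9.59-fold higher than naive in Fas+/+ mice (log2 fold change 3.26 ± 0.48, edgeR adjusted p = 6.51e-05) and 7.11-fold higher in Fas-/- mice (2.83 ± 0.47, edgeR adjusted p = 0.000346). Without Fas+/+ replicate 1 the former was 3.62 on the log2 scale. At 6 weeks the levels were 29.6, 45.7, 41.0 and 50.6 CPM in Fas+/+ and 93.1, 53.6, 51.3 and 62.5 CPM in Fas-/- libraries. All 8 remained above the naive libraries, and the 4 of Fas-/- mice lay above the 4 of Fas+/+ mice. Against naive mice Runx1 was 3.72-fold higher in Fas-/- mice (log2 fold change 1.89 ± 0.46, edgeR adjusted p = 0.0203), a call that was lost without naive replicate 1, naive replicate 3 or Fas-/- replicate 1. In Fas+/+ mice the level was 2.38-fold the naive level and was not called by edgeR (1.25 ± 0.45, adjusted p = 0.126), although without Fas+/+ replicate 1 of 3 weeks, which also sets the pooled spread, the same value was called (edgeR adjusted p = 0.00425).

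Runx2, the osteoblast factor at chr17:44495987-44814797 on the minus strand, followed Runx1 at a lower level. It stood at 4.05, 3.03, 5.87 and 2.68 CPM in naive, at 4.02, 27.9, 38.3 and 24.4 CPM in Fas+/+ and at 21.9, 26.9, 23.4 and 7.54 CPM in Fas-/- libraries at 3 weeks. As with Runx1, Fas+/+ replicate 1 stayed at the naive level and Fas-/- replicate 4 was the lowest of its group. Runx2 was 6.03-fold higher than naive in Fas+/+ mice (log2 fold change 2.59 ± 0.53, edgeR adjusted p = 0.000957), with an overlap through that single library and an exact permutation p of 0.0857. It was 5.11-fold higher in Fas-/- mice (2.35 ± 0.52, edgeR adjusted p = 0.00287). At 6 weeks Runx2 stood at 6.34, 8.03, 3.07 and 9.72 CPM in Fas+/+ and at 14.5, 9.63, 8.98 and 9.34 CPM in Fas-/- libraries. The latter did not overlap the naive libraries but were not called by edgeR (1.44 ± 0.52, adjusted p = 0.111). Runx2os1, on the opposite strand, was higher at 3 weeks in Fas+/+ mice by 2.67 ± 0.86 on the log2 scale (edgeR adjusted p = 0.0196). As the use of strand in counting is not given, how reads were counted where it overlaps Runx2 is not known.

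Because Runx1 and Runx2 moved together, the start of each gene is shown. Sequences are from RefSeq (GRCm38.p6) and are written 5′ to 3′ on the strand of the gene, and capitals mark TGTGGT or its complement ACCACA, the core that runt-domain factors bind.
Runx1, chr16:92826030-92826054, bases 20 to 44 after the start site: cataaacaACCACAgaACCACAagt
Runx2, chr17:44814583-44814607, bases 20 to 44 after the start site: acaACCACAgaACCACAagtgcggt
These pieces share a run of 20 bases, acaACCACAgaACCACAagt, with both copies of the core in it. Upstream of the start, Runx2 held 1 further copy and Runx1 none, and Meox2, which was lower at 3 weeks, held a pair. The Runx2 and Meox2 regions of 250 bases before the start were as follows.
Runx2, chr17:44814628-44814877: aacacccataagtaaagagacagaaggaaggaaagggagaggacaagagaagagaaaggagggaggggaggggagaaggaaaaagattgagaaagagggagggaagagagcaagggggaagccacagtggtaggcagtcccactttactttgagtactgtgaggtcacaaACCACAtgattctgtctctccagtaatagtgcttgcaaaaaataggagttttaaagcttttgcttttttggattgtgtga
Meox2, chr12:37108290-37108539: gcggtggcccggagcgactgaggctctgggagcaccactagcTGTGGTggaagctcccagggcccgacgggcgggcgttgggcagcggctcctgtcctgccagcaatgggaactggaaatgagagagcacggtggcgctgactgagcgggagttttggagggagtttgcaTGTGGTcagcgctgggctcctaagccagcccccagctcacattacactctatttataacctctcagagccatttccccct
RefSeq promoters of 300 bases (250 before to 50 after the start) were at hand for 6 of the 10 factors, Tcf21, Tbx4, Meox2, Runx1 (at a pair of starts), Runx2 and Twist1. TGTGGT on either strand occurred in those of Meox2, Runx2 and the upstream Runx1 start, and in 16.8% of all 32851 promoters. The letters were not found in the windows of Tcf21, Tbx4, Twist1 or the other Runx1 start.

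Twist1, a basic helix-loop-helix factor at chr12:33957671-33959829 on the plus strand, was near the lower limit of the bulk data, with 22 to 116 reads per library. It ranged over 1.05–4.67 CPM in naive, 1.86–5.76 in Fas+/+ and 1.38–5.08 in Fas-/- libraries at 3 weeks, and over 1.21–4.93 and 2.15–3.98 at 6 weeks. All groups overlapped, and with all libraries no comparison was called by edgeR (adjusted p = 0.143 in Fas+/+ mice at 3 weeks, with a log2 fold change of 0.93 ± 0.50). Without naive replicate 4, the highest naive library, the log2 fold change of Twist1 was 1.53 and was called by edgeR (adjusted p = 0.0234). It was 1.18 without the library of each bleomycin group that was highest in endothelial markers (edgeR adjusted p = 0.0331) and 1.98 with the endothelial covariate (edgeR adjusted p = 0.0492). Twist2, its close relative, was lower at 3 weeks in Fas+/+ (log2 fold change -0.91 ± 0.20, edgeR adjusted p = 0.00164) as well as in Fas-/- mice (-1.08 ± 0.20, adjusted p = 0.000673).

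**Figure D3:**
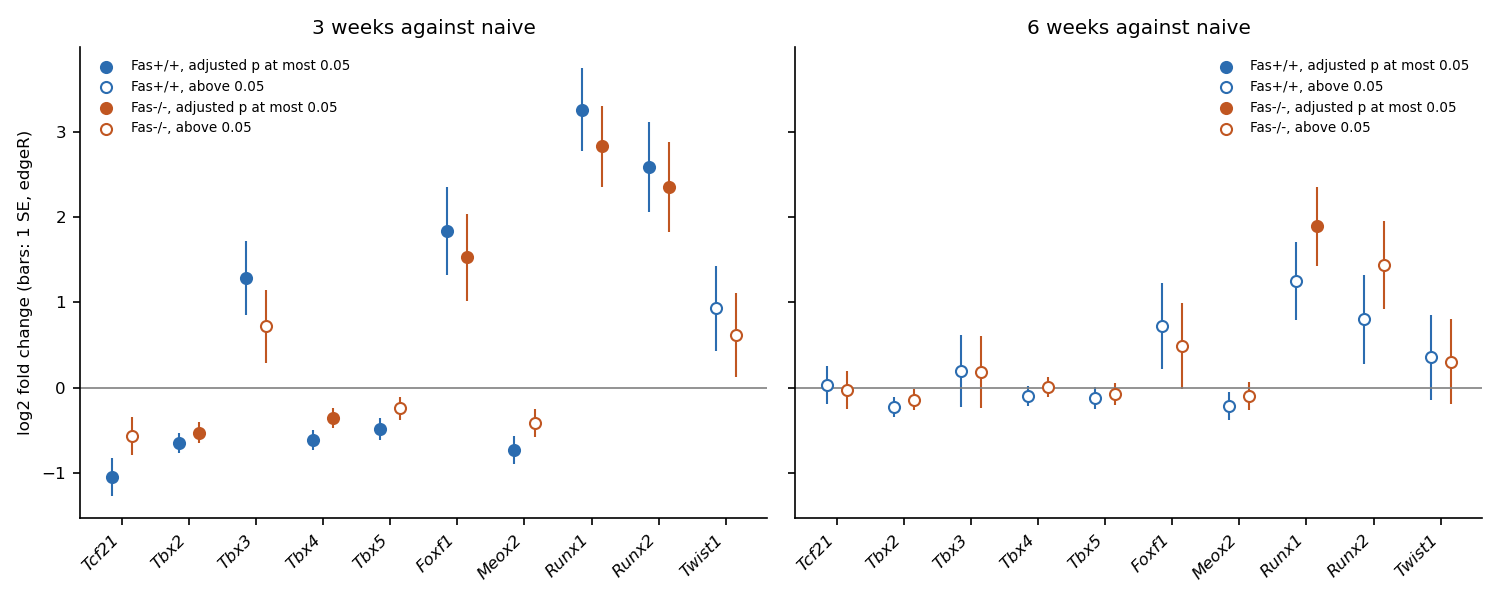
Log2 fold changes against naive mice (vertical axis, with bars of 1 SE from edgeR) are given for the 10 factors (horizontal axis) at 3 and at 6 weeks. Both genotypes are in each panel, and symbols are filled where the adjusted p of edgeR was at most 0.05. At 3 weeks 9 symbols are filled for Fas+/+ and 5 for Fas-/- mice, and at 6 weeks the symbol of Runx1 in Fas-/- mice alone is filled.

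Recovery was therefore compared directly as 6 against 3 weeks. In Fas+/+ mice edgeR called 6 of the 10 factors, with Tcf21, Tbx2, Tbx4 and Meox2 higher and Runx1 and Runx2 lower at 6 weeks, where 22.9% of all genes were called (12% higher and 10.9% lower), and 7 did not overlap, as for 23.5% of all genes. Runx1 dropped 4.03-fold (log2 fold change -2.01 ± 0.46, edgeR adjusted p = 0.00444) and Runx2 3.46-fold (-1.79 ± 0.51, adjusted p = 0.0168), in both cases with an overlap through Fas+/+ replicate 1 of 3 weeks. Tbx3, Tbx5 and Foxf1 did not overlap between 3 and 6 weeks but were not called by edgeR (adjusted p = 0.0748, 0.0568 and 0.118). Without Fas+/+ replicate 3 of 3 weeks the called factors were 3 (Tcf21, Tbx4 and Runx1), without Fas+/+ replicate 1 of 6 weeks 4, and without Fas-/- replicate 4 of 3 weeks 9. Calls over all genes in these fits are not given here, so a general shift in calls cannot be told apart. In Fas-/- mice Tbx2 alone passed, and its call was lost when any of several single libraries was left out. Runx1 there changed by -0.94 ± 0.44 on the log2 scale (edgeR adjusted p = 0.194), with levels of 51.3–93.1 CPM at 6 weeks against 66.7–164 CPM at 3 weeks.

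Whether the loss of Fas altered these factors was asked within each week. At 3 weeks edgeR called none of the 10 between Fas-/- and Fas+/+ mice, where 0.171% of all genes were called, and DESeq2 called none of the 9 for which it gave an adjusted p. At an unadjusted p under 0.05, which 8.62% of all genes reached, there were 2, Tcf21 (log2 fold change 0.48 ± 0.22, edgeR adjusted p = 0.567) and Tbx4 (0.26 ± 0.12, adjusted p = 0.544), both higher in Fas-/- mice. When the library highest in endothelial markers was left out of each bleomycin group, 4 were called by edgeR at 3 weeks, where 8.13% of all genes were called in that setting, with Tcf21 higher by 0.92 (adjusted p = 0.00267) and Tbx4 by 0.37 (adjusted p = 0.00625), and Foxf1 (-0.76) and Tbx3 (-0.64) lower, in Fas-/- mice. That choice was made after seeing the data, and it leaves 3 libraries a group whose endothelial marker sums still differ, at 632–1140 CPM in Fas-/- against 2555–3347 in Fas+/+ mice. At 6 weeks none was called by edgeR (0.0507% of all genes were) or by DESeq2, and none had an unadjusted p under 0.05, which 8.07% of all genes had. Runx1 was then 1.56-fold higher in Fas-/- mice, with all 4 libraries above those of Fas+/+ mice (log2 fold change 0.64 ± 0.45, edgeR adjusted p = 0.846, exact permutation p = 0.0286, the smallest possible). Groups that did not overlap were found for 6.81% of all genes in that comparison. The genotype-by-time interaction of Runx1 was 1.08 ± 0.63 on the log2 scale and was not called by edgeR (adjusted p = 0.746), nor was that of any other of the 10, by edgeR or by DESeq2 (Foxf1 apart), with none at an unadjusted p under 0.05. Of all genes 0.00634% were called and 7.67% had an unadjusted p under 0.05.

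Compared per length of exon, the order of levels in naive cells was Tbx2, then Tcf21 (119 ± 21.1 CPM per kilobase, SD, n = 4) and Tbx4 (111 ± 4.48), which lay within their spread of each other. Foxf1 (42.6 ± 5.83), Meox2 (35.0 ± 4.45) and Tbx5 (34.3 ± 1.60) formed the next set, of which Meox2 and Tbx5 did not differ beyond their spread. Tbx3 followed at 14.6 ± 2.27, and Runx1 (1.46 ± 0.14), Twist1 (1.42 ± 0.99) and Runx2 (0.442 ± 0.162) were lowest. In Fas+/+ mice at 3 weeks the mean of Foxf1 rose to 152 CPM per kilobase, next to Tbx2 at 166, but without replicate 1 Foxf1 stood at 106 and Tbx2 at 156. Runx1 rose to 14, still under Tbx4 at 72.2 and Tcf21 at 57.6.

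Other regulators of the same families and layer were counted from fixed lists. In Fas+/+ mice at 3 weeks the counts stand beside 22.1% of all genes called higher and 19.2% lower. Of 18 relatives of the 10 factors 13 were tested, and in Fas+/+ mice at 3 weeks 3 were higher and 3 lower, with a median log2 fold change of -0.06 against 0.01 over all genes. Beside Meox1 and Twist2, these included Tbx1 (higher by 3.87 ± 0.78, edgeR adjusted p = 0.000886, from a mean of 0.453 CPM) and Foxf2 (lower, -0.69 ± 0.18, adjusted p = 0.00493). Of 13 partners and inhibitors, 5 were higher and 4 lower. Cbfb, the obligate partner of the Runx factors, rose with them by 0.87 ± 0.11 (edgeR adjusted p = 1.55e-05), Id3, an inhibitor of helix-loop-helix factors, rose by 0.69 ± 0.08 (adjusted p = 8.97e-06), and Runx1t1 was lower (-0.89 ± 0.11, adjusted p = 9.47e-06). At 6 weeks Cbfb was no longer called in either genotype, while Id3 was still higher in Fas+/+ (0.62 ± 0.08, edgeR adjusted p = 0.000201) and Fas-/- mice (0.78 ± 0.08, adjusted p = 3.55e-05). Of 47 other mesenchymal factors, 7 were higher and 18 lower at 3 weeks in Fas+/+ mice (median -0.15). Osr1, an early marker of lung mesoderm, was lower (log2 fold change -1.05 ± 0.12, edgeR adjusted p = 4.82e-06) and was still called, lower, at 6 weeks in Fas+/+ (-0.44 ± 0.11, adjusted p = 0.0320) as well as Fas-/- mice (-0.51 ± 0.11, adjusted p = 0.0129). Genotype comparisons called no gene of any of these lists.

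Of 12 genes that textbooks place downstream of the factors, 11 were tested. In Fas+/+ mice at 3 weeks 4 were higher and 5 lower, where 22.1% of all genes were called higher and 19.2% lower. The lower ones with the smallest adjusted p were the signals of the alveolar mesenchyme Fgf10 (log2 fold change -1.07 ± 0.12, edgeR adjusted p = 5.27e-06), Wnt2 (-1.26 ± 0.15, adjusted p = 8.97e-06) and Bmp4 (-0.79 ± 0.11, adjusted p = 3.97e-05), and the Hedgehog target Hhip (-1.39 ± 0.18, adjusted p = 2.11e-05). At 6 weeks Fgf10 and Hhip were still called, lower, in Fas+/+ mice. In Fas-/- mice the 3 lower ones were Hhip (-0.93 ± 0.18, edgeR adjusted p = 0.00494), Wnt2 (-0.61 ± 0.15, adjusted p = 0.0197) and Bmp4 (-0.39 ± 0.11, adjusted p = 0.0428), and Ibsp, a bone matrix gene, was higher (4.31 ± 1.16, adjusted p = 0.0339).

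Genes whose pattern over the 20 libraries was most like that of a factor were found by the root mean square difference of centred log2 CPM. For Tcf21 these were Ms4a4d (0.16), Aldh1a1 (0.18) and Hsd11b1 (0.19). For Runx1 they were Shc4 (0.28), Sfrp1 (0.29) and Megf11 (0.30), and Shc4 (0.33) was also the nearest to Runx2. Foxf1 was nearest to Impdh1 (0.15), Tbx3 to Dgkz (0.13), Tbx4 to Evc2 (0.094), Tbx5 to Arhgef17 (0.088) and Meox2 to Nr2f2 (0.12).

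Single cells were then used to see which cells held each factor. After filtering, 12059 of 13900 barcodes were kept and fell into 23 clusters, of which 17 were counted as mesenchymal (9868 cells), and median UMIs (unique molecular identifiers, each 1 counted molecule) per cell ran from 5768 to 8896 between libraries. The 17 include 3 clusters without a name (2235 cells), of which 1 (668 cells, median 1440 UMIs) had all 5 erythroid and all 7 hematopoietic markers raised. The factors and all listed genes were kept out of the clustering. With 1 library per condition no test between conditions was possible, and the intervals given are 95% exact intervals that cover counting error only. The libraries also have peculiarities. Of 603 cells in the naive library, 57.0% carried a barcode that was present in another library, against 5.99–14.3% in the other 4, and 333 of the 543 shared barcodes were deepest in the naive library. The course of the labels did not follow that of the bulk libraries either. Profibrotic markers in mesenchymal cells summed to 4558 and 6066 CPM in the libraries labelled 3 weeks (Fas+/+ and Fas-/-) and to 16260 and 18726 CPM in those labelled 6 weeks, against 4009 CPM in naive cells, whereas in bulk they peaked at 3 weeks. Fas, counted over the whole gene, stood at 36.6 CPM in mesenchymal cells labelled 3 weeks Fas-/- against 62.5 CPM in those labelled Fas+/+. In those labelled 6 weeks it stood at 61.3 against 60.1 CPM. A Fas UMI was seen in 38.37% (Fas+/+) and 19.94% (Fas-/-) of mesenchymal cells labelled 3 weeks. In those labelled 6 weeks the shares were 41.22% and 40.05%. The paper reports reduced expression of the deleted exon of Fas in the Fas-deficient cells at both times. Over the whole gene, Fas was thus lower in Fas-/- than in Fas+/+ cells only under the label of 3 weeks. The deleted exon was not counted apart, and what these values say about the deletion or the labels was not tested. No library was reassigned, and single-cell libraries are named by their labels.

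The class with the highest mean level was found for each factor. Over libraries with at least 20 cells of a class, Tcf21 was highest in lipofibroblast-like cells (mean 1119 CPM of the UMIs of those cells, SD 84.7, 5 libraries), against 290 in pericyte-like cells, the next. Tbx2 (1470, SD 169), Tbx4 (428, SD 48.5) and Tbx5 (490, SD 29.9) were highest in pericyte-like cells. Foxf1 (1152, SD 135, 4 libraries) and Tbx3 (422, SD 52.7) were highest in blood endothelial-like cells, with pericyte-like cells next at 304 and 132 CPM. Meox2 was highest in lipofibroblast-like cells (174, range 161–189), where the range overlaps that of the unnamed cells (mean 157, range 121–177). Runx1 (245, SD 96.4) and Runx2 (32.6, SD 10.3) were highest in profibrotic fibroblast-like cells, and epithelial-like cells, in 3 libraries, held Runx1 at a mean of 106 CPM. Twist1 had its highest mean in mesothelial-like cells (31.3, range 19.9–48.9), which overlaps profibrotic fibroblast-like (25.8, range 14.1–34.5) and Col14a1 fibroblast-like cells (24, range 16.3–37.8). The same class came first for all 10 under each alternative filter, clustering and depth tried.

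**Figure D4:**
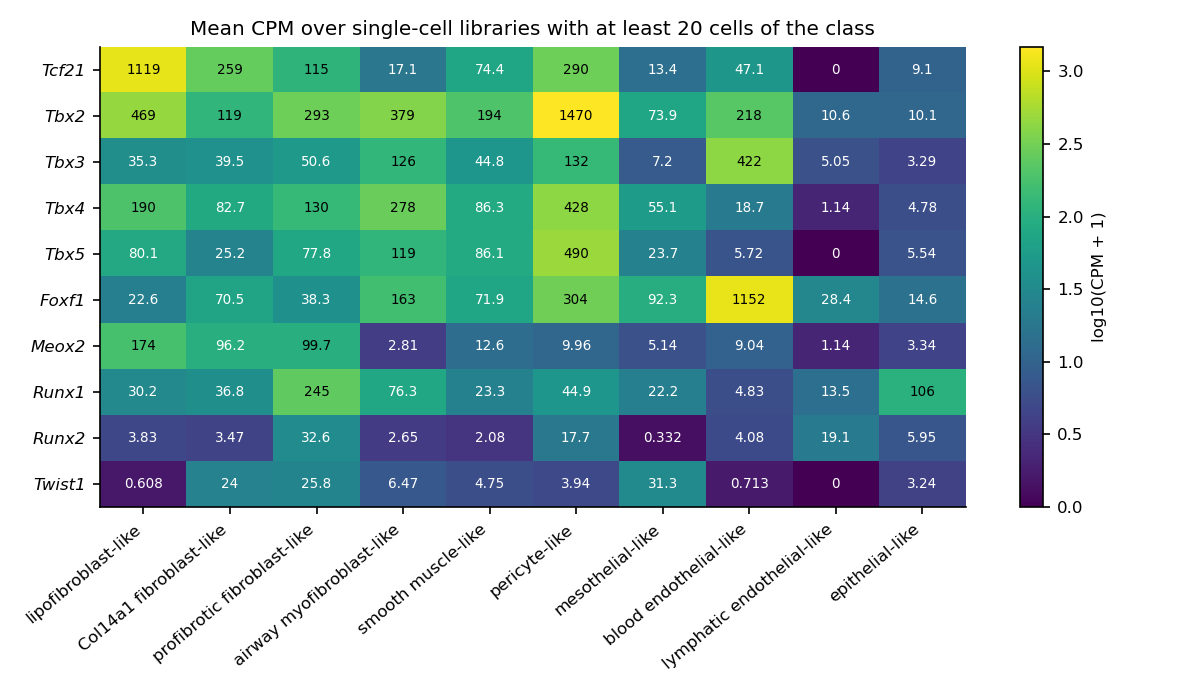
The heatmap gives the level of each of the 10 factors (rows) in 10 cell classes (columns), as mean CPM over the single-cell libraries with at least 20 cells of the class. Tcf21 peaks in lipofibroblast-like cells at 1119 CPM, Foxf1 in blood endothelial-like cells at 1152, and Runx1 in profibrotic fibroblast-like cells at 245.

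A large share of Foxf1 and Tbx3 UMIs was thus in cells outside the mesenchyme. Blood endothelial-like cells numbered 9 in the naive library, 244 and 182 in the libraries labelled 3 weeks Fas+/+ and Fas-/-, and 1181 and 244 in those labelled 6 weeks Fas+/+ and Fas-/-. In the same order they held 7.6%, 50.3%, 48.8%, 79.7% and 43.6% of all Foxf1 UMIs, and 10.1%, 39.4%, 30.2%, 71.6% and 23.3% of all Tbx3 UMIs. Per UMI of these cells, Foxf1 stood at 1048 CPM (995–1104), 1030 (958–1107), 1220 (1195–1245) and 1309 (1245–1376) in the 4 bleomycin libraries. Lipofibroblast-like cells held 13.0–38.8 CPM of Foxf1 and pericyte-like cells 190–392. In mesenchymal cells as a whole Foxf1 stood at 70.1 CPM (63.3–77.4) in the naive library, at 58.4 (55.4–61.5) and 48.6 (45.2–52.1) in those labelled 3 weeks, and at 82.6 (79.2–86.2) and 62.5 (59.8–65.3) in those labelled 6 weeks. In the libraries labelled 3 weeks Foxf1 in mesenchymal cells was thus below that of the naive library. The interval of the library labelled 6 weeks Fas+/+ lay above it, but no longer did so at resolution 0.4, without Scrublet doublets, with thinned cells, without unnamed clusters or without shared barcodes. That interval stayed above with at most 10% mitochondrial UMIs and with shared barcodes kept only in the library where they were deepest. Blood endothelial markers summed to 180 CPM in the mesenchymal cells of that library against 56.1 in those of the naive library.

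Tcf21 differed more between libraries over mesenchymal cells as a whole than within its own class. Over all mesenchymal cells it stood at 575 CPM (555–595) in the naive library, 546 (536–555) and 457 (446–467) in those labelled 3 weeks Fas+/+ and Fas-/-, and 322 (315–329) and 350 (344–357) in those labelled 6 weeks. In lipofibroblast-like cells it stood at 1168 CPM (1121–1217), 1242 (1217–1267), 1035 (1007–1063), 1064 (1036–1092) and 1086 (1062–1112) in the same order. Without barcodes shared between libraries the naive value of this class was 998 CPM (925–1075), and all 5 libraries then lay between 998 and 1247. Lipofibroblast-like cells made up 37.5% of the cells of the naive library, 29.5% and 31.2% of those labelled 3 weeks, and 15% and 24.1% of those labelled 6 weeks, shares that the sort and the number of endothelial cells also set. Profibrotic fibroblast-like cells, of which the naive library had 10, held Tcf21 at 214 CPM (192–237) and 152 (134–171) in the libraries labelled 3 weeks and at 43.5 (38.5–48.8) and 49.5 (44.9–54.4) in those labelled 6 weeks. Meox2 ran the same way, with 161–189 CPM in lipofibroblast-like cells of all 5 libraries, and with 128 and 131 CPM, then 61.0 and 78.8 CPM, in profibrotic fibroblast-like cells.

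Runx1 was above the naive level both over all mesenchymal cells and within lipofibroblast-like cells, while in mesothelial-like cells it stood at 20.9 CPM in the naive library and at 15.1–27.2 in the others. Over all mesenchymal cells it stood at 13.5 CPM (10.6–16.9) in the naive library, at 39.6 (37.1–42.2) and 56.9 (53.3–60.7) in those labelled 3 weeks Fas+/+ and Fas-/-, and at 155 (150–160) and 129 (125–133) in those labelled 6 weeks. With each cell thinned to 3000 UMIs the values were 11.1, 40.5, 53.1, 114 and 104 CPM in that order. In lipofibroblast-like cells it stood at 6.01 CPM (3.10–10.5), 19.2 (16.2–22.6), 32.3 (27.6–37.6), 56.1 (49.9–62.9) and 37.4 (32.9–42.3). In profibrotic fibroblast-like cells it reached 163 CPM (144–183), 169 (151–189), 361 (347–376) and 289 (277–300) in the 4 bleomycin libraries. There 61.2%, 50.9%, 88.4% and 92.6% of cells had a Runx1 UMI (median 17398 UMIs per cell). In blood endothelial-like cells (median 4769 UMIs) the shares were 1.23%, 1.65%, 2.29% and 2.87%. Other classes held more than the endothelial-like cells. Over libraries with at least 20 cells of a class, naive included, the shares were 37.3–46.8% in epithelial-like and 16.8–54.5% in unnamed cells. They were 5.45–42.4% in airway myofibroblast-like, 15.5–33.7% in Col14a1 fibroblast-like and 5.31–25.3% in lipofibroblast-like cells. Profibrotic fibroblast-like cells held 26.2%, 32.1%, 55.4% and 59.2% of all Runx1 UMIs in these libraries. Runx2 in this class stood at 20.04, 28.3, 41.9 and 40.1 CPM.

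**Figure D5:**
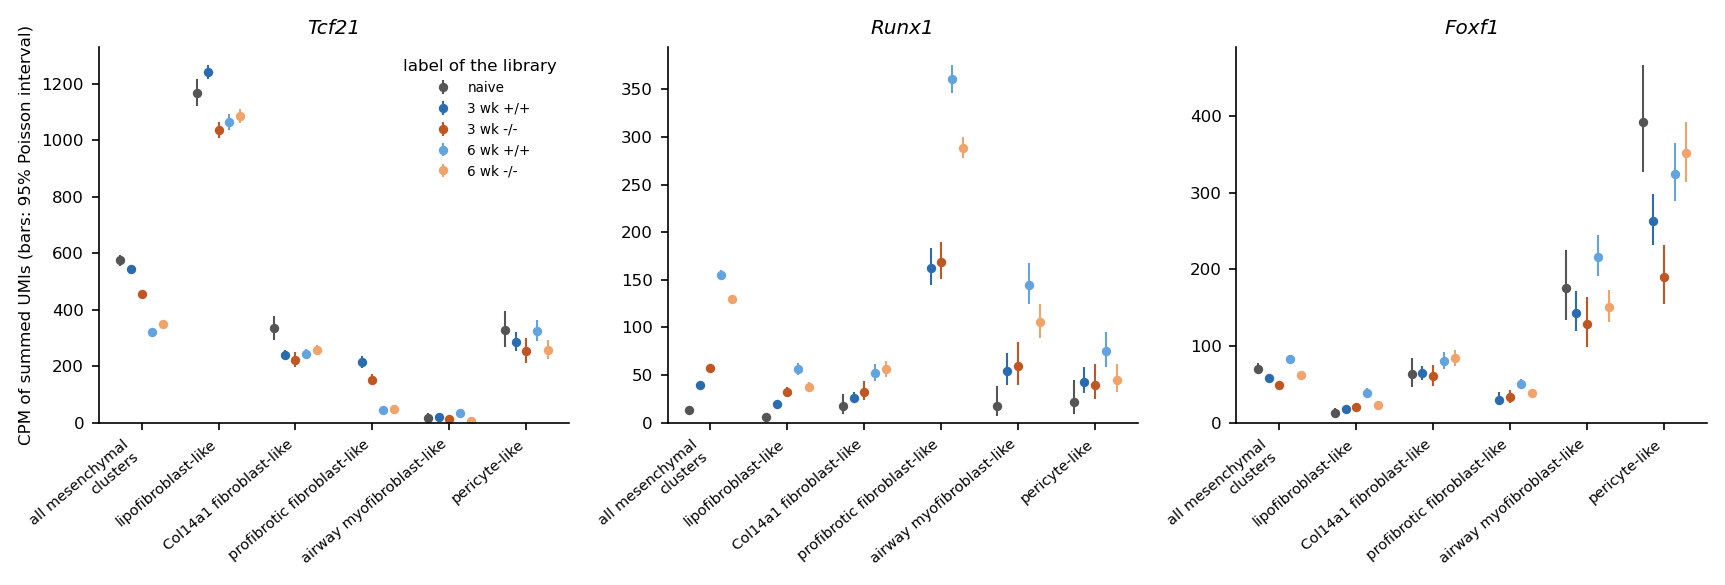
Levels of Tcf21, Runx1 and Foxf1 (CPM of the UMIs of the cells, with 95% exact Poisson intervals for counting error) are plotted for all mesenchymal cells and for 5 cell classes, with 1 point per single-cell library. Tcf21 stays between 1035 and 1242 CPM in lipofibroblast-like cells. In all mesenchymal cells Runx1 climbs from 13.5 CPM in the naive library to 155 CPM in that labelled 6 weeks Fas+/+. Foxf1 ranges over 190–392 CPM in pericyte-like cells, and blood endothelial-like cells are not plotted.

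Counted over the 10 factors in all mesenchymal cells, 2 lay wholly below the interval of the naive library in the library labelled 3 weeks Fas+/+ (Tbx2 and Foxf1), 3 in that labelled 3 weeks Fas-/- (also Tcf21), and 4 in each of those labelled 6 weeks (Tcf21, Tbx2, Tbx4 and Meox2). Runx1 lay above it in all 4. Tbx2 went from 433 CPM in the naive library to 367 and 312 in those labelled 3 weeks and 300.3 and 288 in those labelled 6 weeks, while its level in pericyte-like cells was 1237–1684 CPM. Without barcodes shared between libraries the counts below naive were 5, 5, 4 and 4, with Tcf21, Tbx2, Tbx4 and Tbx5 among them in every library. That setting left out cells of the naive library with a median of 12177.5 UMIs and kept those with a median of 4597. With shared barcodes kept only in the library where they were deepest, the counts were 2, 3, 4 and 4, as with all barcodes. With all barcodes but without the unnamed clusters, the counts below naive were 3, 3, 4 and 6. The share of all genes whose intervals lay below naive in this way is not given here. These counts therefore cannot be read as particular to the 10 factors.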

How the data were processed

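Bulk RNA-seq of 20 libraries and scRNA-seq of 5 libraries were analysed from the deposited gene counts. Per the study's methods, the bulk counts were made by the authors from skewer-trimmed reads, with HISAT2 as aligner, GRCm38 as genome and HTSeq counting over Ensembl genes (stranded KAPA mRNA libraries, NovaSeq). Whether strand was used in counting is not given in the sources used here. The single-cell files are matrices of UMI counts from Cell Ranger. A table of the same bulk counts divided by 1 constant per library was deposited too and not used.

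Bulk counts were filtered with filterByExpr (minimum count 10), scaled by TMM and fitted over all 5 groups with the quasi-likelihood test of edgeR 4.0.16 (R 4.3.3), with Benjamini-Hochberg adjustment over 15773 genes and a threshold of 0.05. CPM values used TMM library sizes. Exact two-sided permutation tests compared group means of log2 CPM for single factors. The script was tested on simulated data beforehand. Alternatives were DESeq2 1.42.0, RLE scaling, no filter, only the groups compared, the replicate number as a block, the mean of the endothelial markers as a covariate, and each library left out. The members and lists were chosen with earlier results of these data known. All members are reported, and of each list at most 4 genes with the smallest adjusted p in the comparison described, Twist2, Meox1, Fendrr, Tbx3os1 and Runx2os1 being named beside their neighbours or relatives.

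A cell was kept if it had 200 to 7500 genes and no more than 20% of UMIs from mitochondrial genes, and a gene if seen in at least 4 cells, and cells were integrated and clustered with Seurat 5.3.0 and sctransform 0.4.2 (3000 features, 20 components, resolution 0.8), leaving 205 listed genes out of the features. Clusters were named from fixed markers, and 3 clusters (2235 cells) stayed unnamed and were counted as mesenchymal. Cells with over 7500 genes were removed as likely doublets. Scrublet in scanpy 1.11.5 called 49 of 12059 cells (0.406%), too few to have worked. Levels are summed UMIs of a gene over all UMIs of the cells, as CPM, with exact Poisson intervals, and shares of cells carry exact Clopper-Pearson intervals in the tables, both at 95%.

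Of 40 pairs of same-numbered libraries from different groups, 14 correlated above 0.1 in their deviations from the group mean (range -0.46 to 0.40). Libraries of unlike number were not compared, so these values cannot show whether same-numbered libraries belong together. The numbers were not taken as pairs in the main fit.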

Additional observations from a re-analysis of the deposited data

Results flagged for a closer look

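In 10 of 50 sets of 4 libraries the highest or lowest library stood apart from the rest, its gap to the nearest library divided by the range of the set being above Dixon's critical value at 95%. For independent sets of normally distributed values, chance alone does this in about 1 in 20. The 50 sets come from the same 20 libraries, so the count cannot be read against that rate. In Fas+/+ replicate 1 at 3 weeks, Tbx3 was at 483 CPM (141–176 in the other 3 libraries) and Foxf1 at 701 CPM (239–279). In Fas-/- replicate 4 at 3 weeks, Tbx3 was at 340 CPM (91.3–110), Foxf1 at 734 CPM (135–178) and Tbx4 at 206 CPM (316–335). These are the libraries with the most endothelial marker RNA, as is Fas-/- replicate 2 at 6 weeks, where Foxf1 was at 273 CPM (89.0–119). In Fas-/- replicate 1 at 6 weeks, which had the least endothelial marker RNA of all 20 libraries, Meox2 was at 112 CPM (63.4–67.9) and Runx2 at 14.5 CPM (8.98–9.63). Tbx2 was at 929 CPM in Fas+/+ replicate 1 at 6 weeks (760–772), and Runx1 was at 14.9 CPM in naive replicate 3 (18–18.6).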

How the results depend on the processing

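With the endothelial covariate, the called factors among the 10 were 3 at 3 weeks in either genotype, 1 (Fas+/+) and 2 (Fas-/-) at 6 weeks, and 0 for 6 against 3 weeks in Fas-/- mice. Fits on only the groups compared gave 2 and 2 at 6 weeks and 0 for 6 against 3 weeks in Fas-/- mice, where RLE scaling and no filter gave 0 too. DESeq2 gave 2 in Fas-/- mice at 6 weeks and 2 for their step from 3 weeks. The shares of all genes called under these settings, with the replicate block or with 1 library left out are not given here. A change in these counts therefore cannot be told apart from a change in calls over all genes. Without the library highest in endothelial markers in each bleomycin group, an alternative chosen after seeing the data, the counts were 2 and 2 at 6 weeks, 5 for 6 against 3 weeks in Fas-/- mice, 4 for genotype at 3 weeks and 2 for the interaction. In that setting 9.62%, 11.7%, 16.7%, 8.13% and 1.58% of all genes were called in those comparisons. At 3 weeks it gave 10 (Fas+/+) and 6 (Fas-/-), and for 6 against 3 weeks in Fas+/+ mice 8. For these 3 counts the shares over all genes are not given here. DESeq2 gave no adjusted p for Foxf1. Leaving out 1 library in turn gave 8 to 9 (Fas+/+) and 3 to 7 (Fas-/-) at 3 weeks, 0 to 1 and 0 to 2 at 6 weeks, 3 to 9 and 0 to 4 for 6 against 3 weeks, 0 to 2 for genotype at 3 weeks, and 0 for genotype at 6 weeks and the interaction. The Tbx2 call for 6 against 3 weeks in Fas-/- mice was lost without naive replicate 2, 3 or 4, Fas+/+ replicate 2, 3 or 4 or Fas-/- replicate 1, 2 or 4 of 3 weeks, or Fas-/- replicate 1 or 3 of 6 weeks. In single cells, leaving out shared barcodes (chosen after seeing the data) put 5 and 5 factors below naive in the libraries labelled 3 weeks, and thinning put 2 below in that labelled 6 weeks Fas+/+. Keeping shared barcodes only where they were deepest, also chosen after seeing the data, left the counts at 2, 3, 4 and 4. Shares over all genes are not given for these single-cell counts either.

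With the replicate number as a block, 6 factors were called in Fas-/- mice at 3 weeks (Foxf1 lost at an edgeR adjusted p of 0.0619, Tcf21 and Meox2 gained) and 7 for 6 against 3 weeks in Fas+/+ mice (Tbx5 gained), and the other counts kept their values. The block turned Tcf21 at 6 weeks in Fas-/- mice to 0.0037 and the genotype difference of Twist1 at 6 weeks to 0.028 (log2).

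Other log2 values that changed sign did so mostly under the endothelial covariate. These were, at 3 weeks, Tbx3 -0.37 and Foxf1 -0.31 (Fas+/+), then Tbx3 -0.53, Tbx5 0.055 and Foxf1 -0.21 (Fas-/-). At 6 weeks they were Tbx3 -0.59, Tbx4 0.11, Tbx5 0.12, Foxf1 -0.34 and Meox2 0.079 in Fas+/+, and Tbx3 -0.21, Tbx5 0.038, Foxf1 -0.12 and Meox2 0.018 in Fas-/- mice. For 6 against 3 weeks in Fas-/- mice they were Tbx3 0.32, Tbx5 -0.017 and Foxf1 0.086, and for genotype Foxf1 0.11 at 3 weeks and Tbx3 0.38, Tbx5 -0.078, Foxf1 0.22 and Meox2 -0.061 at 6 weeks. In Fas-/- mice at 6 weeks Tbx4 turned to -0.0045 with RLE and -0.0042 with DESeq2, and Tbx3 to -0.10 and Foxf1 to -0.022 without the endothelial-rich libraries.

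With 1 library left out, signs changed within these ranges: at 6 weeks in Fas+/+ mice Tcf21 -0.040 to 0.15 and Twist1 -0.0030 to 0.95; in Fas-/- mice Tcf21 -0.13 to 0.093, Tbx3 -0.11 to 0.32, Tbx4 -0.034 to 0.047 and Foxf1 -0.024 to 0.66. For 6 against 3 weeks in Fas-/- mice Tbx3 ran from -0.80 to 0.15. For genotype at 3 weeks Tbx3 ran from -1.23 to 0.056, Foxf1 from -1.25 to 0.22 and Runx2 from -0.60 to 0.087. For genotype at 6 weeks Tcf21 ran from -0.15 to 0.030, Tbx2 from -0.0049 to 0.16, Tbx3 from -0.30 to 0.13, Tbx5 from -0.066 to 0.12, Meox2 from -0.12 to 0.19 and Twist1 from -0.32 to 0.30. For the interaction Tbx2 ran from -0.13 to 0.040, Tbx3 from -0.068 to 1.21, Foxf1 from -0.45 to 1.02 and Twist1 from -0.014 to 0.61. The cause of these changes was not tested.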
